A study of Mus musculus with 40 samples.

Results

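The miRNAs described here are the 6 mature products of 3 hairpins that are known as vascular: mmu-miR-126a-3p and mmu-miR-126a-5p, mmu-miR-143-3p and mmu-miR-143-5p, and mmu-miR-145a-5p and mmu-miR-145a-3p, written without the mouse prefix from here on. They were taken by name from a small RNA sequencing table of the hippocampus, and are 6 of the 1978 mature miRNAs that it lists. The precursor entry of a miRNA was selected on its total count, the highest being used, but each of these miRNAs had 1 entry. The 40 libraries came from 40 mice, and they held 5 wild-type (WT) mice and 9 CaMKIIδC transgenic (TG) mice at 3 months of age, and 15 WT and 11 TG mice at 6 months. These numbers follow the titles, and the authors' figure legend for the small RNA data gives other numbers of TG mice at both ages. Both genotypes were littermates on a C57Bl/6J background, both sexes were used, and the CA1 subregion was dissected. TG mice carry a CaMKIIδC transgene and serve as a model of heart failure. The promoter of the transgene is not given in the sources used here, and small RNA libraries do not measure the transgene. The genotype field of WT 3 months mice 1 and 2 says TG where their titles say wild-type, and the titles were followed.

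A miRNA hairpin is cut into a duplex, and one strand of it, the 5p or the 3p arm, is loaded into an Argonaute protein to guide the repression of matching mRNAs. miR-126 is made in endothelial cells, from an intron of Egfl7, a gene for a secreted endothelial protein, and is known for its role in vessel integrity and VEGF signaling. miR-143 and miR-145 come from neighbouring hairpins, 1301 bases apart on the same strand, and are known as regulators of smooth muscle differentiation and of pericytes, the contractile and supporting cells of the vessel wall. In brain tissue these miRNAs are therefore used as markers of vessels. In bulk tissue, fewer cells of a type and less RNA per cell cannot be told apart.

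In the GENCODE annotation of GRCm38, Mir126a lies on the plus strand at chr2:26591357-26591429 within Egfl7 (chr2:26580014-26593120). It was intronic in all 7 protein-coding Egfl7 transcripts that span it, while 1 of the 9 spanning transcripts overlapped it with an exon. The RefSeq table (GRCm38.p6) held the mature sequence of 1 of the 6 miRNAs, miR-126a-3p. It is shown here with its hairpin because miR-126a-3p carried the difference with age described below, and with the miRNA of the opposite strand because the latter overlaps it. Capitals mark the seed, bases 2 to 8, in the mature sequences, and the mature miR-126a-3p in the hairpin.

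miR-126a-3p: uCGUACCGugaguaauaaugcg
Mir126a hairpin: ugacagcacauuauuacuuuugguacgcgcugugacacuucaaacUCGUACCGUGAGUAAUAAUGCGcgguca
miR-126b-5p: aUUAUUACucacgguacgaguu

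The mature miR-126a-3p covers chr2:26591402-26591423 and spans bases 46 to 67 of the 73-base hairpin. Of the 1679 mature miRNAs in the RefSeq table, 1 had this seed, namely miR-126a-3p itself. miR-126b-5p comes from the minus strand (chr2:26591399-26591420), and 19 of its 22 bases in a row are the reverse complement of miR-126a-3p. miR-126b-5p and miR-126b-3p were at 0 counts in all 40 libraries, a floor of 3 counts that corresponds to 0.131 to 1.56 CPM (counts scaled to a common library size) depending on the library. The counts of miR-126a-3p thus had no counterpart assigned to the strand opposite.

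Library totals ranged from 2656368 to 36547011 counts over all rows, of which 1926108 to 22892729 were miRNA counts. The lowest count of miR-126a-3p in any library was 10061 and that of miR-143-3p was 11920, while miR-126a-5p fell to 53, miR-145a-5p to 49 and miR-145a-3p to 30. miR-143-5p was at 0 in 1 library, TG 6 months mouse 9, which with 1926108 miRNA counts was the shallowest. All 6 miRNAs passed the filter on low counts in every comparison. Counting error is therefore largest for miR-143-5p. The labels number the libraries within each group, and p-values measure the spread between these libraries.

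miR-126a-3p and miR-143-3p were abundant. Ranked by mean CPM, scaled with the TMM method that adjusts library sizes for composition, miR-126a-3p was in place 18 of 1978 in both groups of 6-month-old mice, in place 22 in WT 3 months and in place 30 in TG 3 months. miR-143-3p was in places 25 to 30 in the 4 groups. miR-126a-5p was in places 165 to 175, miR-145a-5p in places 199 to 217, miR-145a-3p in places 243 to 252, and miR-143-5p in places 400 to 445. Ligation favours some small RNAs over others, so levels of different miRNAs are a ranking within these libraries.

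The 3p arm dominated the miR-126a and miR-143 hairpins, whereas both arms of miR-145a were recovered in similar amounts. miR-126a-5p made up 0.524% to 5.41% of the counts of its hairpin in the 40 libraries, and miR-143-5p made up 0% to 0.243%. miR-145a-3p made up 29.1% to 59.4% of its hairpin. The 6 miRNAs together took 0.762% to 2.68% of the miRNA counts of a library.

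**Figure D1:**
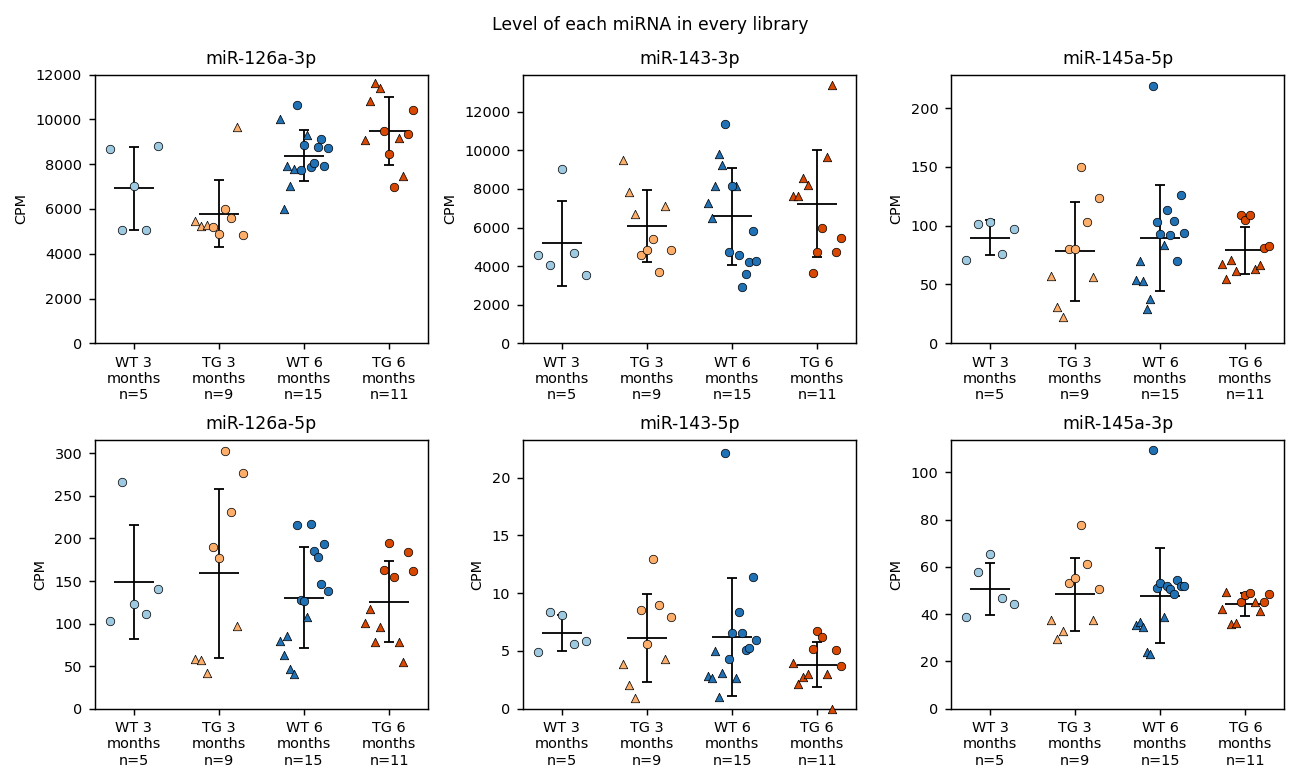
Level of each miRNA in every library (TMM-scaled CPM, linear axes from 0), by group. Circles are libraries with a TMM factor of 1 and above, triangles those with a factor under 1, and bars show the mean and SD; miR-126a-3p was higher at 6 months in TG mice, with 1 TG 3 months mouse at 9669 CPM.

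The libraries differed in composition, and most of the 6 miRNAs differed along with it. The TMM factor of a library ranged from 0.621 to 1.37, with 16 libraries under 1 (up to 0.960) and 24 at 1.00 or above. All 5 WT 3 months libraries were at 1.01 or above, while 4 of 9 TG 3 months, 6 of 15 WT 6 months and 6 of 11 TG 6 months libraries were under 1. The factor is computed from the same counts over all miRNAs, the 2 sets of libraries were separated at 1 after the data were seen, and TG 6 months mouse 11 lay at the border with 1.00. Under 1 were mice 1 to 4, 8 and 9 of TG 6 months. In WT 6 months these were mice 1 to 5 and 9, and in TG 3 months mice 1 to 3 and 8. The sets thus followed the numbering of the mice in part. The labels give no batch, date or sex for single mice. Differences between the 2 sets are given as descriptions.

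The minor arms of miR-126a and miR-143 separated the 2 sets of libraries, and that of miR-145a did not. miR-126a-5p made up 0.524% to 1.14% of its hairpin in the 16 libraries under 1, and 1.18% to 5.41% in the 24 others, with no overlap. miR-143-5p made up 0% to 0.0609% in the former and 0.0671% to 0.243% in the latter, again with no overlap. As background, the arm shares of 14 of 159 hairpins (8.81%) with both arms at a mean of 1 CPM or more did not overlap between the sets. miR-145a-3p, the minor arm of miR-145a, overlapped, with 31.7% to 59.4% under 1 and 29.1% to 43.7% above. Since both arms of a hairpin are counted in the same library, these shares do not depend on how libraries are scaled to each other.

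**Figure D2:**
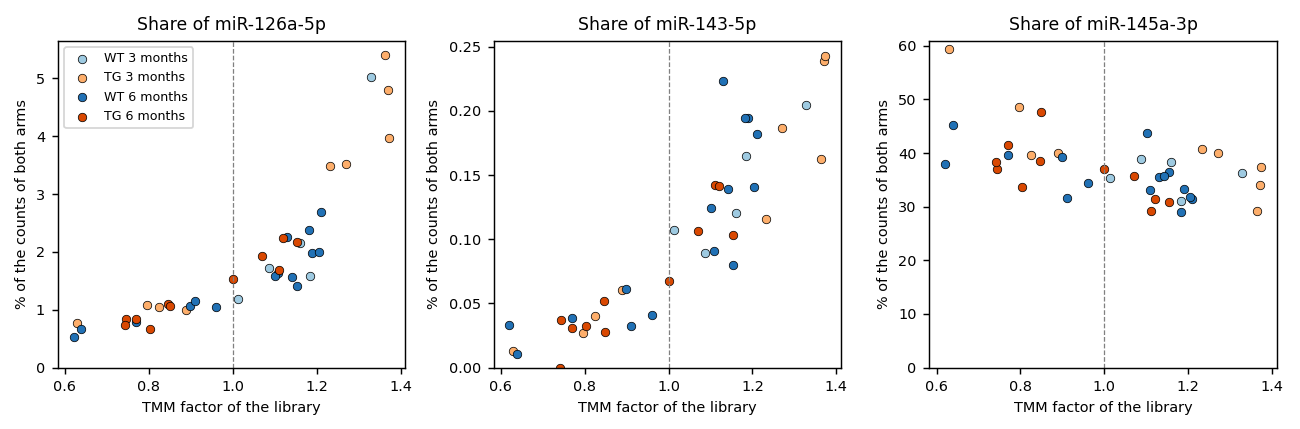
Share of the minor arm among the counts of both arms of its hairpin (y, percent) against the TMM factor of the library (x), for each of the 40 libraries, colored by group; the dashed line marks a factor of 1. On the miR-126a and miR-143 panels all points left of the line lie lower than all points right of it.

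On the CPM scale, the levels of miR-126a-3p overlapped between the sets in each group that held both. It ranged from 5234 to 11641 CPM under 1 (median 8495) and from 4839 to 10630 CPM at 1 and above (median 7994). miR-126a-5p, its partner from the same hairpin, ranged from 41.1 to 117 CPM under 1 (median 78.2) and from 103 to 303 CPM above (median 178). miR-145a-5p had medians of 57.0 and 102 CPM, and miR-145a-3p of 36.5 and 51.4 CPM.

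In CPM, miR-143-3p went the opposite way from miR-145a-5p, its genomic neighbour. CPM are divided by the TMM factor that defines the sets, so a factor under 1 by itself raises the CPM of every miRNA. Whether miR-143-3p separates the sets without this scaling was not tested. Its median was 8149 CPM in libraries under 1 and 4703 CPM in the others. Within TG 3 months and within TG 6 months, every library under 1 had more miR-143-3p, and less miR-145a-5p and miR-126a-5p, than every library at 1 and above. In WT 6 months, miR-143-3p and miR-145a-5p overlapped between the sets and miR-126a-5p did not. As background, 361 miRNAs averaged 10 CPM or more, and 56.0% of these did not overlap between the sets in TG 3 months, 39.6% in TG 6 months and 30.7% in WT 6 months, so this separation was widespread.

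The ratio of the counts of miR-143-3p to miR-145a-5p, which does not depend on how libraries are scaled, separated the sets as well. It ran from 92.5 to 339 in the 16 libraries under 1 and from 31.7 to 88.1 in the 24 others. How many ratios between other miRNAs separate the sets was not computed, so this is not shown to be particular to the pair. The ratio of miR-126a-3p to miR-143-3p, an endothelial to a mural cell miRNA, ran from 0.558 to 1.42 and from 0.777 to 2.76, respectively.

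**Figure D3:**
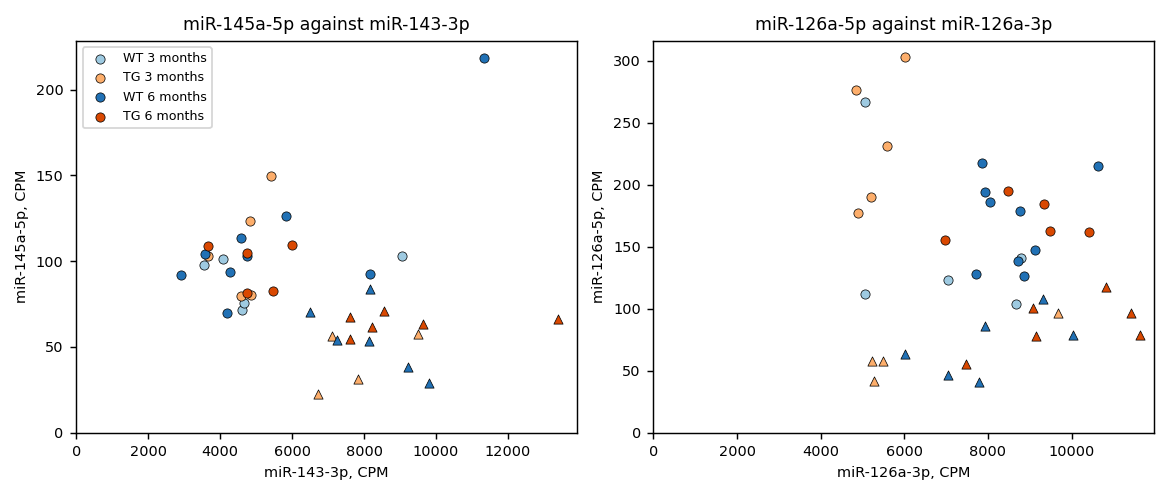
miR-145a-5p against miR-143-3p (left) and miR-126a-5p against miR-126a-3p (right), in CPM, 1 point per library, colored by group; triangles are libraries with a TMM factor under 1 and circles the others. The triangles lie below the circles in miR-126a-5p with a small overlap, and WT 6 months mouse 6 stands alone on the left at 11349 and 219 CPM.

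WT 6 months mouse 6 was high in all mural cell miRNAs. miR-143-3p was at 11349 CPM in this mouse and at 2918 to 9796 CPM in the other WT 6 months mice, miR-145a-5p at 219 against 28.9 to 126.2 CPM, miR-145a-3p at 109 against 23.2 to 54.4 CPM, and miR-143-5p at 22.2 against 1.01 to 11.4 CPM. miR-126a-3p was also highest in this mouse, at 10630 against 6007 to 10026 CPM. Its TMM factor was 1.19, within the range of the group. Among lists of cell type miRNAs, the sum of 5 mesenchymal and perivascular fibroblast miRNAs (miR-199a, miR-199b and miR-214 arms) was highest of 15 in this mouse, at 115 against 23.3 to 68.0 CPM. The sum of 18 other vascular and perivascular miRNAs, which include these 5, was in place 14 of 15, at 14361 against 13472 to 21574 CPM. The sum of 6 red blood cell miRNAs was in place 12 of 15 at 945 CPM. The edgeR and limma fits and the differences within sets of libraries were also computed without this mouse.

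The first comparison asked what changed with age in TG mice. miR-126a-3p rose between 3 and 6 months, and was the only one of the 6 miRNAs to pass the test. In TG 3 months it had a lowest level of 4839, a median of 5281 and a highest of 9669 CPM, with a mean of 5798 ± 1495 CPM (SD, n = 9). In TG 6 months it had a lowest level of 6964, a median of 9342 and a highest of 11641 CPM, with a mean of 9477 ± 1507 CPM (SD, n = 11). All 11 older mice lay above the mean of the younger ones. The groups overlapped through TG 3 months mouse 8, at 9669 CPM, while the other 8 younger mice were at 4839 to 6013 CPM and below every older mouse.

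The log2FC of miR-126a-3p was 0.73 (SE 0.14, adjusted p = 0.00146, edgeR quasi-likelihood test, Benjamini-Hochberg adjustment over 629 miRNAs), a fold change of 1.65. To be called, a miRNA had to have an absolute log2FC over 0.26 and an adjusted p below 0.05. In this comparison 99 of 629 miRNAs were called, which is 15.7%, and 1 of the 6 described here. Of the 99, 47 rose and 52 fell. With the library size alone 32 rose and 76 fell, and with the UniSp spike-in oligos as the scale 3 rose and 263 fell. By the size of its log2FC miR-126a-3p was in place 105 of 629.

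The rise of miR-126a-3p was relative to other miRNAs. Scaled to the spike-in total, its log2FC was 0.056 (adjusted p = 0.855), while the median of all miRNAs moved from −0.088 to −0.73. Relative to the median of all miRNAs, it was 0.81 higher on the log2 scale with TMM, 0.78 with the spike-ins and 0.78 with the library size alone. Spike-in oligos took 0.0851% to 0.173% of the counts in TG 3 months and 0.118% to 0.249% in TG 6 months. Whether this difference reflects the amount of miRNA in the tissue was not tested.

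**Figure D4:**
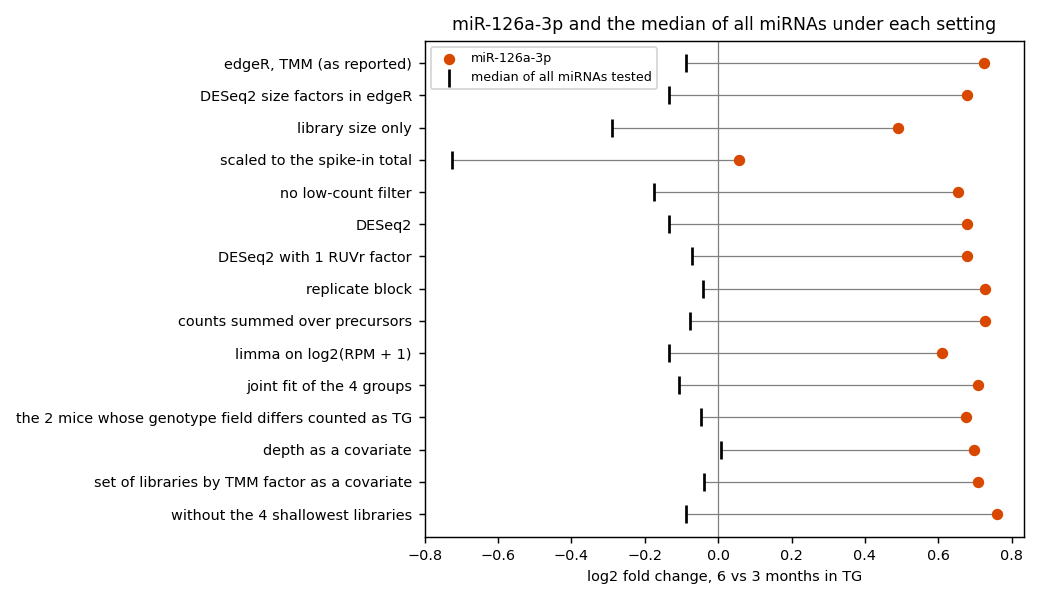
log2 fold change of miR-126a-3p between 6 and 3 months in TG mice (orange points) and the median of all miRNAs tested (black ticks), under the reported fit and each alternative (y). The point lies 0.69 to 0.85 above the tick under these settings, and with the spike-ins it lies at 0.056.

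The difference of miR-126a-3p had the same direction in both sets of libraries, and neither passed adjustment there. At a TMM factor of 1 and above, 5 TG 3 months mice were at 4839 to 6013 CPM and 5 TG 6 months mice at 6964 to 10406 CPM. How many of all miRNAs separate these mice was not computed. Their TMM factors did not overlap either, at 1.23 to 1.37 in the younger and 1.00 to 1.15 in the older mice. Nor did their miRNA counts, at 18431486 to 22892729 and 7387405 to 16612207. Age, factor and depth therefore cannot be told apart in this set, which holds for every difference with age in TG mice given within it. The difference in mean log2 CPM was 0.74 (exact permutation test, two-sided, p = 0.00794, the smallest that 5 against 5 can give; adjusted p = 0.0952 over 36 such differences). Under 1, 4 younger mice were at 5234 to 9669 CPM and 6 older mice at 7480 to 11641 CPM, a difference of 0.67 (exact permutation p = 0.0381, adjusted p = 0.158). With the set of libraries as a covariate in edgeR the log2FC of miR-126a-3p was 0.71 (adjusted p = 0.000126), in a fit in which 34.3% of all miRNAs were called. Without TG 3 months mouse 8 it was 0.85, and it was called in all 20 fits that left out 1 mouse. The set covariate does not adjust for the factor within a set.

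miR-126a-5p, from the same hairpin, did not pass the test. It ranged from 41.4 over a median of 177 to 303 CPM in TG 3 months and from 55.3 over 117 to 195 CPM in TG 6 months, and the older mice lay within the range of the younger ones. The log2FC was −0.33 (95% interval −1.02 to 0.37, adjusted p = 0.511). Within the sets it differed by 0.50 under 1 (exact permutation p = 0.143) and by −0.43 at 1 and above (exact permutation p = 0.0397, adjusted p = 0.158), and the 2 directions were opposite.

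miR-143-3p was at 3672, 5406 and 9501 CPM (lowest, median and highest) in TG 3 months and at 3650, 7607 and 13402 CPM in TG 6 months. Of the 11 older mice, 2 lay above and 1 below all younger mice, and the log2FC was 0.28 (95% interval −0.17 to 0.73, adjusted p = 0.379). Scaled to the spike-ins it was −0.44 and called (adjusted p = 0.0474), in a fit in which 42.3% of all miRNAs were called. The highest value, 13402 CPM, belonged to TG 6 months mouse 9, the shallowest library. Within the sets miR-143-3p differed by 0.22 and 0.068, neither beyond the spread between mice (exact permutation p = 0.257 and 0.683).

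miR-143-5p was at 0.888, 5.62 and 13.0 CPM in TG 3 months and at 0, 3.68 and 6.71 CPM in TG 6 months. It had the most negative log2FC of the 6, −0.64 (95% interval −1.42 to 0.14, adjusted p = 0.239). In DESeq2 with 1 factor of unwanted variation, estimated by RUVr, as a covariate, 48.3% of all miRNAs were called. miR-143-5p was called in that fit, at −0.54 (adjusted p = 0.00288). At a TMM factor of 1 and above it was 0.67 lower in the older mice on the log2 scale (exact permutation p = 0.0238, adjusted p = 0.158).

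miR-145a-5p, the arm usually taken as the functional product of miR-145a, was at 22.6, 79.9 and 150 CPM in TG 3 months and at 54.5, 70.8 and 109 CPM in TG 6 months. Its log2FC was 0.029 (95% interval −0.52 to 0.58, adjusted p = 0.961), and the older mice lay within the range of the younger. Within the sets it differed by 0.71 under 1, at 22.6 to 57.4 against 54.5 to 70.8 CPM (exact permutation p = 0.0286, adjusted p = 0.158), and by −0.11 at 1 and above (exact permutation p = 0.603). Without TG 3 months mouse 3 the former was 0.45. miR-145a-3p was at 29.3, 50.6 and 77.6 CPM and at 36.0, 45.0 and 49.5 CPM, with a log2FC of −0.12 (95% interval −0.45 to 0.22, adjusted p = 0.629). All 11 older mice were below the median of the younger ones. At a TMM factor of 1 and above, miR-145a-3p was lower in the older mice by 0.32 on the log2 scale, at 45.0 to 48.9 against 50.6 to 77.6 CPM (exact permutation p = 0.00794, adjusted p = 0.0952). This p is the smallest that 5 against 5 can give. The share of all miRNAs that separate these mice was not computed, and their TMM factors did not overlap either. Under 1 the difference was 0.27 in the other direction (exact permutation p = 0.0571).

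**Figure D5:**
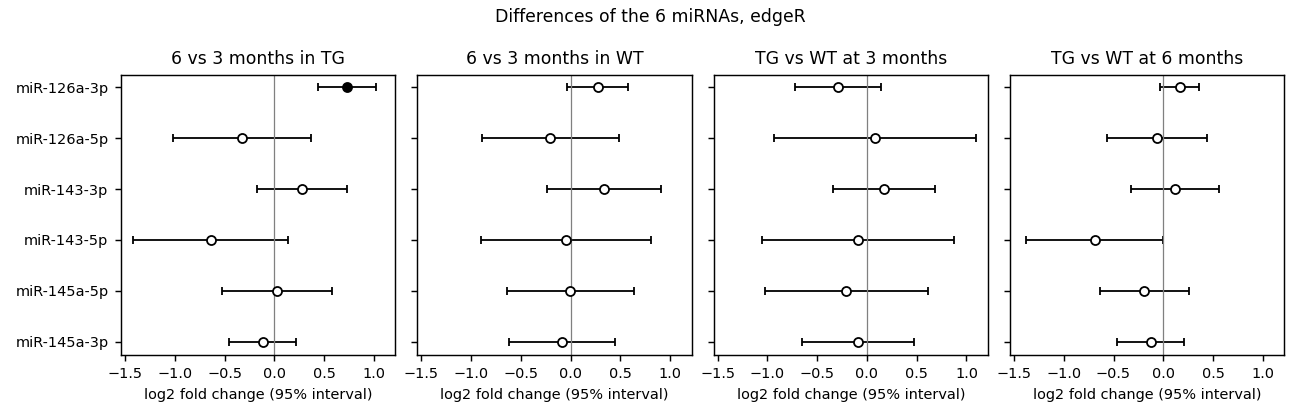
log2 fold changes of the 6 miRNAs (x, with 95% intervals from edgeR) in the 4 comparisons of groups. The filled point, miR-126a-3p between 6 and 3 months in TG mice at 0.73, is the 1 that passed the test.

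In WT mice, none of the 6 miRNAs passed the test between 3 and 6 months with edgeR. The 5 WT 3 months mice had 8670, 5050, 7035, 5055 and 8792 CPM of miR-126a-3p, and the 15 WT 6 months mice had a lowest level of 6007, a median of 8061 and a highest of 10630 CPM. Of the young mice 2 were thus at 5050 and 5055 CPM and 3 at 7035 CPM or more, and 14 of the 15 older mice lay above the young mean of 6921 ± 1841 CPM (SD, n = 5). The log2FC was 0.27 (SE 0.15, 95% interval −0.035 to 0.58, adjusted p = 0.375). In this comparison 1 of 660 miRNAs was called, 0.152%. At an unadjusted p under 0.05 the count was 102 of all miRNAs and 0 of the 6. DESeq2 and limma on log2(RPM + 1) also called 0 of the 6, and DESeq2 with 1 RUVr factor called 1, miR-126a-5p at −0.27 (adjusted p = 0.0295), in a fit in which 28.9% of all miRNAs were called.

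All WT 3 months libraries had a TMM factor of 1 and above, so the WT comparison was repeated within that set. There 9 WT 6 months mice were at 7721 to 10630 CPM of miR-126a-3p, 0.35 higher on the log2 scale than the 5 young mice (exact permutation p = 0.0440, adjusted p = 0.158). Without WT 6 months mouse 6 it was 0.32 higher (exact permutation p = 0.0684). Over all WT mice the other log2FC values were 0.34 for miR-143-3p, −0.20 for miR-126a-5p, −0.085 for miR-145a-3p, −0.047 for miR-143-5p and −0.0064 for miR-145a-5p, with adjusted p from 0.573 to 0.988. With the set as a covariate, those of miR-126a-5p, miR-143-5p, miR-145a-5p and miR-145a-3p turned positive, at 0.18 to 0.35.

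The single values of the WT 3 months mice were as follows for the other miRNAs. miR-126a-5p was at 103, 267, 123, 112 and 141 CPM in mice 1 to 5, and mouse 2 stood apart. miR-143-3p was at 4598, 4073, 9053, 4666 and 3548 CPM, and mouse 3 stood apart. For miR-145a-5p the values were 71.2, 101, 103, 75.8 and 97.4 CPM, for miR-145a-3p 38.8, 57.9, 65.6, 47.0 and 44.1 CPM, and for miR-143-5p 4.92, 8.37, 8.08, 5.62 and 5.86 CPM. The older WT mice ranged over 41.1 to 217 CPM for miR-126a-5p (median 128), 2918 to 11349 CPM for miR-143-3p (median 6506), 28.9 to 219 CPM for miR-145a-5p (median 92.0), 23.2 to 109 CPM for miR-145a-3p (median 50.8) and 1.01 to 22.2 CPM for miR-143-5p (median 5.03).

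Whether the age difference depended on the genotype was tested as an interaction term in a fit of all 4 groups. For miR-126a-3p the difference with age was 0.43 larger in TG than in WT mice on the log2 scale (SE 0.19, unadjusted p = 0.0319), which did not survive adjustment over 699 miRNAs (adjusted p = 0.986). No miRNA was called (0%) with edgeR, and 14 of 699 had an unadjusted p under 0.05. DESeq2, with and without a RUVr factor, and limma also called 0 of the 6. The 2 age comparisons of miR-126a-3p are therefore not shown to differ.

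TG and WT mice of the same age were compared next. At 3 months none of 695 miRNAs was called (0%) with edgeR, and 7 of all and 0 of the 6 had an unadjusted p under 0.05. miR-126a-3p was lower in TG mice, with a log2FC of −0.29 (95% interval −0.73 to 0.14, adjusted p = 0.998). Of the 9 TG mice 8 lay below the WT mean, but 2 of the 5 WT mice, at 5050 and 5055 CPM, were as low as the TG mice. The WT mouse at 5050 CPM is mouse 2, 1 of the 2 whose genotype field says TG. The log2FC of miR-126a-3p was 0.089 when scaled to the spike-ins. The other 5 ranged from −0.21 for miR-145a-5p to 0.17 for miR-143-3p. Within the set at a TMM factor of 1 and above, with 5 mice in each group, miR-126a-5p was 0.72 higher in TG mice, at 177 to 303 against 103 to 267 CPM (exact permutation p = 0.0397, adjusted p = 0.158), while its log2FC over all mice was 0.081. In that set miR-126a-3p was lower in TG mice by 0.35 on the log2 scale (exact permutation p = 0.111), and the other 4 differed by −0.078 to 0.39, with exact permutation p from 0.127 to 0.857.

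At 6 months none of 612 miRNAs was called (0%) with edgeR, and 3 of all and 0 of the 6 had an unadjusted p under 0.05. The miR-126a-3p levels of the 11 TG mice (6964 to 11641 CPM) and the 15 WT mice (6007 to 10630 CPM) overlapped, with a log2FC of 0.16 (95% interval −0.033 to 0.36, adjusted p = 0.992). miR-143-5p had the second largest absolute log2FC of all 612 miRNAs, −0.69 (95% interval −1.38 to 0.0016, unadjusted p = 0.0505, adjusted p = 0.992). It was at 0, 3.68 and 6.71 CPM in TG and at 1.01, 5.03 and 22.2 CPM in WT mice (lowest, median and highest). Without WT 6 months mouse 6, the highest, it was −0.39. DESeq2, with and without a RUVr factor, and limma called 0 of the 6 in both comparisons of genotypes.

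In libraries with a TMM factor of 1 and above, miR-145a-3p of the 5 TG 6 months mice (45.0 to 48.9 CPM) was 0.25 lower on the log2 scale than that of the 9 WT 6 months mice (48.5 to 109 CPM, exact permutation p = 0.0030, adjusted p = 0.0952). Without WT 6 months mouse 6, the one at 109 CPM, the other 8 WT mice were at 48.5 to 54.4 CPM and the difference was −0.13 (exact permutation p = 0.00466). Under 1 it was 0.40 higher in TG mice (exact permutation p = 0.0173, adjusted p = 0.156). The directions were opposite, and the log2FC over all mice was −0.13 (adjusted p = 0.992).

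The balance of the arms was tested next, as the log2 ratio of the 5p to the 3p count within a library. Between 3 and 6 months in TG mice, 34 of 169 hairpins were called with limma (20.1%), and none of the 3 described here, with 55 hairpins at an unadjusted p under 0.05. The ratio of miR-126a-5p to miR-126a-3p was 0.84 lower at 6 months (SE 0.39, unadjusted p = 0.0415, adjusted p = 0.140). Its share of the hairpin was 0.778% to 5.41% at 3 months (median 3.49%) and 0.670% to 2.25% at 6 months (median 1.09%). With the set of libraries as a covariate, this ratio was 0.68 lower and was called (adjusted p = 0.00275), in a fit in which 33.1% of hairpins were called. At a TMM factor of 1 and above the share was 3.49% to 5.41% in 5 younger and 1.53% to 2.25% in 5 older mice. How many of all hairpins separate these mice was not computed. Their TMM factors did not overlap either (1.23 to 1.37 and 1.00 to 1.15), so age and factor cannot be told apart here. The set covariate does not adjust for the factor within a set. Under 1 the share was 0.778% to 1.09% in the younger and 0.670% to 1.09% in the older mice.

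The arm ratio of miR-143 was 0.66 lower at 6 months in TG mice (adjusted p = 0.397) and that of miR-145a was 0.27 higher (adjusted p = 0.397). In WT mice the age difference of the miR-126a ratio was −0.57 (95% interval −1.31 to 0.16, adjusted p = 0.495). No arm ratio was called with limma in WT mice (0% of 179 hairpins, 26 of them at an unadjusted p under 0.05), between genotypes at 3 months (0% of 191, with 4) or at 6 months (0% of 166, with 6). For miR-126a the difference between genotypes was 0.11 at 3 months and −0.16 at 6 months.

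Because the sets of libraries separate most of these miRNAs, correlations between them were computed only among mice of 1 group and 1 set, where at least 6 mice were present. This gave 15 relations over WT 6 months at 1 and above (n = 9), WT 6 months under 1 (n = 6) and TG 6 months under 1 (n = 6), and none had an adjusted p under 0.05. The closest was between the arms of miR-145a in WT 6 months under 1 (r = 0.93, exact permutation p = 0.00417, adjusted p = 0.0625; rho = 0.94, exact permutation p = 0.0167, adjusted p = 0.250), with r = 0.92 among the 4 mice left without the 2 farthest from the median. In TG 6 months under 1 the same arms gave r = −0.67 (exact permutation p = 0.136, adjusted p = 0.227; rho = −0.60, exact permutation p = 0.242, adjusted p = 0.604), and r = 0.49 without the 2 farthest. Scaled by library size only, r of these arms was 0.97 in WT 6 months under 1 and −0.10 in TG 6 months under 1.

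miR-143-3p and miR-145a-5p gave r = 0.69 in WT 6 months at 1 and above (exact permutation p = 0.0484, adjusted p = 0.185; rho = 0.57, exact permutation p = 0.121, adjusted p = 0.603). Without the 2 mice farthest from the median, mouse 6 among them, r was 0.46. The same pair gave r = −0.75 in WT 6 months under 1 (exact permutation p = 0.0833, adjusted p = 0.185; rho = −0.66, exact permutation p = 0.175, adjusted p = 0.604; r = −0.46 without the 2 farthest). In TG 6 months under 1 it gave r = 0.32 (exact permutation p = 0.493, adjusted p = 0.569; rho = 0.37, exact permutation p = 0.497, adjusted p = 0.769; r = 0.56 without the 2 farthest). Scaled by library size only, r was 0.71, 0.53 and −0.035 in the same order, so the sign under 1 depended on the scaling in both groups.

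In WT 6 months at 1 and above miR-126a-3p and miR-126a-5p gave r = 0.13 (exact permutation p = 0.755, adjusted p = 0.809; rho = −0.067, exact permutation p = 0.880, adjusted p = 0.919), and r = −0.83 without the 2 farthest. They gave r = 0.53 in WT 6 months under 1 (exact permutation p = 0.292, adjusted p = 0.398; rho = 0.60, exact permutation p = 0.242, adjusted p = 0.604; r = 0.79 without the 2 farthest). In TG 6 months under 1 they gave r = 0.65 (exact permutation p = 0.175, adjusted p = 0.263; rho = 0.31, exact permutation p = 0.564, adjusted p = 0.769; r = 0.52 without the 2 farthest). Scaled by library size only, r was 0.37, 0.91 and 0.77 in the same order.

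The miRNAs whose levels were most like those of miR-126a-3p, miR-143-3p and miR-145a-5p were found from the Spearman correlation of log2 CPM, centred on the group, over the 40 mice, among 356 other miRNAs that averaged 10 CPM or more. These values are descriptions, since the mice share the 2 sets of libraries. For miR-126a-3p they were miR-22-5p (rho = 0.73), miR-24-1-5p (0.72) and miR-24-2-5p (0.68). For miR-143-3p they were miR-532-5p (0.80), miR-379-5p (0.79) and miR-140-3p (0.78). For miR-145a-5p they were miR-133a-3p (0.91), miR-342-3p (0.90) and miR-664-3p (0.88). Among the 6 miRNAs, miR-145a-5p was closest to miR-126a-5p (0.86) and miR-145a-3p (0.79) and opposite to miR-143-3p (−0.50). miR-126a-3p had rho from −0.056 to 0.029 with the other members of that level, its own partner arm included at 0.016.

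Other vascular and perivascular miRNAs were called about as often as all miRNAs. Of a list of 18 with 13 tested in the TG age comparison, 0 rose and 2 fell with edgeR, while 7.47% of all miRNAs were called higher and 8.27% lower. miR-199b-5p, of a perivascular fibroblast family, fell by 1.29 on the log2 scale (adjusted p = 0.0266), and miR-23a-3p fell by 0.86 (adjusted p = 0.0458). The log2FC was 0.38 for miR-24-3p (adjusted p = 0.0985) and 0.28 for miR-27a-3p (adjusted p = 0.208), of the same cluster as miR-23a. The median log2FC of the list was −0.23, beside −0.088 for all miRNAs. In the WT age comparison and in both comparisons of genotypes 0 of the list were called with edgeR.

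Levels of other cell type miRNAs also differed in the TG age comparison. In the choroid plexus list 2 of 6 rose: miR-204-5p by 0.89 (adjusted p = 0.000602) and miR-211-5p by 1.07 (adjusted p = 0.00103). The other 4 had a log2FC from −0.86 for miR-449a-5p (adjusted p = 0.136) to −0.069 for miR-200b-3p, and the median of the list was −0.19. The summed level of that list was 436 to 1060 CPM in TG 3 months, with mouse 8 highest, and 795 to 1207 CPM in TG 6 months. In the red blood cell list miR-451a rose by 0.68 (adjusted p = 0.0067) while miR-486a-3p and miR-144-3p fell, and the sum was 692 to 2697 CPM and 978 to 2082 CPM. In the neuron list of 6, miR-128-3p rose by 0.73 (adjusted p = 0.0210). The other 5 ranged from −0.69 for miR-137-3p (adjusted p = 0.209) and −0.66 for miR-124-3p (adjusted p = 0.102) to 0.32 for miR-132-3p (adjusted p = 0.140), and the median was −0.023. The sum was 166938 to 318813 CPM in TG 3 months, again with mouse 8 highest, and 198761 to 364627 CPM in TG 6 months. In the oligodendrocyte list 2 of 3 fell, in the microglia and white blood cell list 1 of 5, and in the striated muscle list 1 of 4 tested. Every list had a summed level above 0 in all groups, and 2 of the 18 vascular and perivascular miRNAs, the arms of miR-126b, were at 0 in all libraries. The part of these differences in the rise of miR-126a-3p was not tested.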

How the data were processed

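Small RNA of hippocampal CA1 was sequenced from 40 mice, 1 library each. The authors prepared libraries from total RNA with the NEBNext small RNA kit, trimmed adapters (the submitters' processing notes name cutadapt 2.8, bcl2fastq 2.20.2 and FastQC 0.11.5), aligned with mirdeep2 against mm10 and miRBase, and deposited a table of raw counts with 1 entry per mature miRNA and precursor. The authors also deposited RPM values, which equalled the counts scaled by the library total (largest difference 0.005) and served in 1 alternative. The totals include 52 spike-in oligo entries, left out of the tests. Groups were taken from the titles.

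Counts of 1978 miRNAs were tested in each comparison on its own groups with edgeR 4.0.16 (R 4.3.3): filterByExpr (minimum count 10, minimum total 15), TMM, robust quasi-likelihood test, Benjamini-Hochberg over all tested. Arm ratios, log2((5p + 2)/(3p + 2)), were tested with limma 3.58.1 over all hairpins with both arms passing the filter. Levels are TMM-scaled CPM, on the log2 scale with a prior count of 2. Permutation tests and correlations used scipy 1.17.1, numpy 2.4.6 and pandas 2.3.3, figures matplotlib 3.10.9. Correlations were planned over each group and were computed within sets of libraries after these were seen. DESeq2 1.42.0, alone or with RUVr, was an alternative. Scripts were tested on simulated data.

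The named miRNAs are the 6, the 3 most alike for miR-126a-3p, miR-143-3p and miR-145a-5p, and members of fixed marker lists that passed a test. The 6 miRNAs and the lists were chosen with earlier results of these data known. Floors cover counting error only, as reads carried no molecular identifiers. No 2 libraries of the same group agreed within sampling noise (206 pairs).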

Additional observations from a re-analysis of the deposited data

Results flagged for a closer look

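In groups of 4 to 10 mice, levels, arm shares and ratios of the 6 miRNAs were screened for single mice that stand apart (Dixon's 95% criterion, the gap to the nearest mouse over the range of the group). Chance gives about 1 such case in 20 independent combinations of a measure and a group, and 22 were screened. These are not independent, since levels, shares and ratios come from the same counts. miR-126a-3p was at 9669 CPM in TG 3 months mouse 8, a gap of 0.757 of the range. miR-143-3p was at 9053 CPM in WT 3 months mouse 3 (0.797). miR-126a-5p was at 267 CPM in WT 3 months mouse 2 (0.772), and made up 5.02% of the counts of its hairpin there (0.744). This mouse is 1 of the 2 whose genotype field says TG, and its share of miR-126a-5p lay in the range of the TG 3 months mice with a TMM factor of 1 and above, 3.49% to 5.41%. The other, WT 3 months mouse 1, had a share of 1.18%, outside that range. The TMM factor of mouse 2, 1.33, also lay in the range of those TG 3 months mice, 1.23 to 1.37, and that of mouse 1, 1.01, did not. Whether the share of mouse 2 goes with its genotype or with its factor cannot be told apart. The part of the flagged mice in any difference was not tested beyond leaving each out.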

How the results depend on the processing

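Where 1 mouse was left out in turn, the count of the 6 miRNAs called remained 1 in the TG age comparison and 0 in the other comparisons, and the count of arm ratios called remained 0. The log2FC of miR-126a-3p in TG mice was then 0.69 to 0.85. It passed the test under 13 of 14 other settings, all but the spike-in scaling. Among the values of single miRNAs and arm ratios with no call as reported, the sign turned in the cases below, for which the cause was not tested.

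In the TG age comparison, miR-145a-5p turned to −0.031 with DESeq2 size factors in edgeR and with DESeq2, to −0.31 with library size only, to −0.053 with no low-count filter and to −0.0054 with the 2 mice of differing genotype field counted as TG. Scaled to the spike-in total, 3 of the 6 were called (miR-143-3p, miR-143-5p and miR-145a-3p, all lower), with miR-143-3p at −0.44 and miR-145a-5p at −0.84. With RUVr 2 were called, miR-126a-3p and miR-143-5p. With depth as a covariate, miR-126a-5p was at 0.33, miR-143-5p at 0.16, miR-143-3p at −0.081, miR-145a-3p at 0.060 and the miR-143 arm ratio at 0.27. With the set of libraries as a covariate, miR-126a-5p was at 0.00072, and 1 arm ratio, that of miR-126a, was called. Over all miRNAs 99 were called as reported, 266 with the spike-ins, 304 with RUVr, 216 with the set, 66 with depth and 72 to 131 without 1 mouse.

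In the WT age comparison, miR-143-3p was at −0.021 with the spike-ins, miR-145a-5p at 0.00027 in a joint fit, and miR-126a-5p at 0.051 without the 2 mice of differing genotype field or with these counted as TG. With RUVr 1 of the 6 was called. With depth as a covariate miR-126a-5p and miR-145a-3p were at 0.19 and miR-143-5p and miR-145a-5p at 0.28. With the set, the values were 0.18 for miR-126a-5p, 0.35 for miR-143-5p, 0.32 for miR-145a-5p, 0.20 for miR-145a-3p and 0.14 for the miR-143 arm ratio. Without the 4 shallowest libraries they were 0.050 for miR-143-5p, 0.12 for miR-145a-5p and 0.019 for miR-145a-3p. Over all miRNAs 1 was called as reported, 25 with DESeq2, 191 with RUVr, 2 with the set and 0 to 4 without 1 mouse.

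Between genotypes at 3 months, the spike-ins gave 0.089 for miR-126a-3p, 0.36 for miR-143-5p, 0.29 for miR-145a-5p and 0.28 for miR-145a-3p. miR-126a-5p was at −0.10 with RUVr, −0.27 with limma and −0.48 with depth, and its arm ratio at −0.34 with depth. The set gave 0.43 for miR-143-5p, −0.12 for miR-143-3p, 0.28 for miR-145a-5p, 0.25 for miR-145a-3p and 0.46 for the miR-143 arm ratio. At 6 months miR-143-3p was at −0.010 with library size only, −0.064 with the spike-ins and −0.026 with the set, which also gave 0.13 for miR-126a-5p, 0.013 for the miR-126a and 0.011 for the miR-145a arm ratio. The interaction of miR-126a-3p was −0.070 with the spike-ins.

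The labels do not say that equal replicate numbers pair the mice. Same-numbered mice correlated over 0.1 in 7 of 9 pairs in the TG age comparison (lowest −0.82, mean 0.27). This was 2 of 5 in the WT one (mean 0.060). Between genotypes it was 2 of 5 at 3 months (mean 0.0082) and 9 of 11 at 6 months (mean 0.41). Equal numbers often fell in the same set of libraries, so a pairing cannot be told apart from the sets. With the replicate block, 5 of the 6 miRNAs and 2 arm ratios were called in the WT age comparison, where 37.9% of all miRNAs and 38.5% of hairpins were called, and 1 arm ratio in the TG one, that of miR-126a, where 22.5% of hairpins were called. The block gave −0.21 for the WT miR-145a arm ratio. Between genotypes it gave −0.79 for miR-126a-5p and −0.34 for its arm ratio at 3 months, and 0.15 for miR-126a-5p, −0.034 for miR-143-3p, 0.022 for miR-145a-3p and 0.0021 for the miR-126a arm ratio at 6 months.

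Leaving out 1 mouse turned the sign of further small values. These ranges were −0.094 to 0.21 for miR-145a-5p with age in TG. With age in WT they were −0.35 to 0.063 for miR-143-5p, −0.16 to 0.060 for miR-145a-5p, −0.32 to 0.12 for miR-126a-5p, −0.22 to 0.011 for miR-145a-3p and −0.038 to 0.085 for the miR-145a arm ratio. Between genotypes at 3 months they were −0.31 to 0.049 for miR-143-5p, −0.098 to 0.44 for miR-126a-5p, −0.21 to 0.021 for miR-145a-3p and −0.091 to 0.45 for the miR-126a arm ratio. At 6 months they were −0.14 to 0.015 for miR-126a-5p, −0.0074 to 0.19 for miR-143-3p, −0.18 to 0.012 for miR-145a-3p and −0.080 to 0.033 for the miR-145a arm ratio. Depth limits miR-143-5p most, with 0 to 411 counts a library.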
